A study of Drosophila melanogaster with 9 samples.

Results

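The genes described here encode the core autophagy machinery and the vacuolar proton pump of the fly. They are the 53 genes whose symbols begin with Atg or Vha among 16700 listed in a gene table of adult heart RNA from Drosophila melanogaster, 20 Atg genes and 33 Vha genes. The Vha genes divide into 13 for the V1 sector of the pump, 18 for the Vo sector and 2 for accessory proteins. The study asked how a sugar-rich and a fat-rich food alter gene expression in the heart. All flies were mated w1118 females. The labels give 23 °C for the time on the diets, whereas the study's methods give a warmer temperature for the first 7 days and 23 °C after them. The normal diet (ND) was given for 10 days, the high-sugar diet (HSD, ND with 30% sucrose added) for 10 days, and the high-fat diet (HFD, ND with 30% coconut oil added) for the last 3 days after 7 days on ND. Each diet has 3 libraries, named A, B and C, and each library was made from pooled hearts, 15 by the labels and a larger number by the study's methods. Hearts were collected on a different day for each library of a diet, with flies of all diets set up for each date, and no source ties the letters to the dates. HSD and HFD also differ in the length of exposure, so the kind of food and its duration cannot be told apart.

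Autophagy encloses cytoplasm in a double membrane, the autophagosome, and delivers it to the lysosome, where it is degraded. The Atg1 kinase complex starts the process, a lipid kinase complex marks the membrane, the Atg9, Atg2 and Atg18 proteins bring lipid, and conjugation enzymes couple the ubiquitin-like Atg8 to the growing membrane. The vacuolar ATPase (V-ATPase) acidifies the lysosome: its V1 sector in the cytosol splits ATP and its Vo sector in the membrane carries the protons. In fly muscle and heart, autophagy is known for the removal of damaged proteins and mitochondria. Drosophila carries several genes for many V-ATPase subunits, some of them known mainly from the testis.

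The library sizes behind the deposited RPKM (read counts divided by exon length and library size) were estimated as the totals that turn the values into whole reads. They ran from 59941761 to 90069216 reads per library. Cardiac markers were detected at 7 of 7, with summed levels of 1110 to 1370 RPKM in ND, 1030 to 1440 in HSD and 1030 to 1480 in HFD. Most of that sum came from Mlc2, Mhc and Hand, with means of 738, 263 and 234 RPKM. The factors tin, mid and H15 were at 3.26, 2.39 and 14.8 RPKM and hardly enter the sum. Markers of some other cell types differed between diets. The 8 fat body markers summed to 63500 to 91100 RPKM in ND, 37200 to 45000 in HSD and 22100 to 25600 in HFD, with no overlap. The 3 yolk protein genes Yp1, Yp2 and Yp3 made up 93.4% to 96.8% of that sum, and the other 5 markers summed to 2070 to 2920, 1640 to 1960 and 1230 to 1560 RPKM. Against ND, 4 of the 8 were called lower in HSD and 4 in HFD (Yp1, Yp2, Yp3 and Lsp2). Over all 8365 genes tested, 214 were called lower in HSD and 121 in HFD. In HSD apolpp, Lsd-1, AkhR and FASN1 were at log2 fold changes of -0.06, 0.22, 0.25 and -0.40 (limma adjusted p = 0.9, 0.67, 0.43 and 0.23). In HFD all 8 lay below 0. There apolpp, Lsd-1, AkhR and FASN1 were at -0.67, -0.40, -0.17 and -0.25 (limma adjusted p = 0.052, 0.4, 0.6 and 0.5). The 7 hemocyte markers summed to 786 to 886 RPKM in ND, 580 to 798 in HSD and 646 to 771 in HFD, and the 6 pericardial nephrocyte markers to 378 to 513, 248 to 428 and 338 to 473. On either list 0 were called, while 3.3% of all genes were called in HSD and 1.91% in HFD against ND. All 7 and all 6 lay below 0 in HSD against ND, with medians of -0.23 and -0.29. In HFD against ND 6 of 7 and 4 of 6 did, with medians of -0.36 and -0.04. The lowest value in HSD was that of Amnionless (-0.76, limma adjusted p = 0.055). In HFD eater was at -0.49 (adjusted p = 0.037), under 1.5-fold. The 7 ovary and eggshell markers summed to 29.7 to 575 RPKM in ND, 2.06 to 62.5 in HSD and 2.0 to 14.3 in HFD, with the highest sum in ND C. Of the 6 tested, 6 lay below 0 in HSD and 5 in HFD against ND. In HFD 1 was called lower, Cp15 (log2 fold change -6.1, limma adjusted p = 0.025), and in HSD 0 were called. The 4 neuron markers summed to 4.97 to 5.6 RPKM in ND, 5.03 to 5.66 in HSD and 3.89 to 5.61 in HFD. The part of these cell types in the results below was not tested, and in such bulk samples fewer cells of a type and less RNA per cell cannot be told apart.

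Of the 53 genes, 39 reached a mean of 0.5 RPKM and were tested, 19 of 20 Atg genes and 20 of 33 Vha genes. Levels are given as RPKM scaled to a common median between libraries, with the libraries of a diet always in the order A, B, C. RPKM is per exon length, with the annotated exons of all isoforms of a gene counted. Levels set side by side between genes therefore also depend on the annotation and on the isoforms present. Over all members, tested or not, the median mean level was 17.7 RPKM for the 33 Vha genes (0.0 to 287) and 17.0 for the 20 Atg genes (0.0518 to 327). Among those tested it was 65.2 RPKM for Vha and 17.0 for Atg genes, a difference set by the filter, which left out 13 low Vha genes and 1 Atg gene, and 9.65 for all 8365 genes tested.

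**Figure D1:**
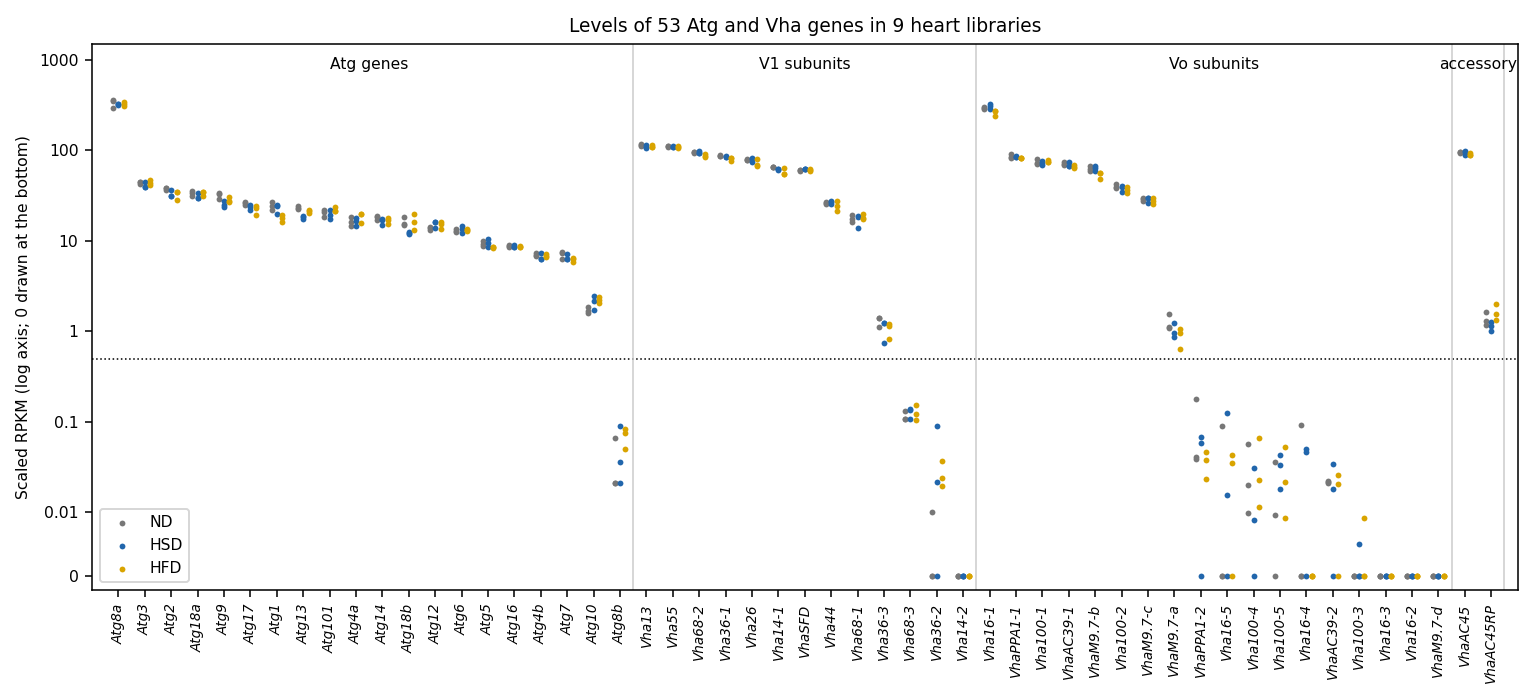
Scaled RPKM (log axis, values of 0 drawn at the bottom) of all 53 genes in the 9 libraries, grouped by family and sorted by mean level, with grey, blue and yellow points for ND, HSD and HFD. The dotted line is the 0.5 RPKM limit, and Atg8a and Vha16-1 stand above the rest of their families in each diet.

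No Atg or Vha gene was called different between diets. A call required a Benjamini-Hochberg adjusted p under 0.05 from limma across all 8365 genes and a change of at least 1.5-fold. In HSD against ND 0 of 39 were called, whereas 3.3% of all tested genes were. In HFD against ND 0 of 39 were called against 1.91% of all genes, and in HSD against HFD 0 of 39 against 4.35%. At an unadjusted p under 0.05 from limma, 3, 8 and 6 of the 39 passed in these comparisons, next to 20.7%, 18.4% and 25.7% of all genes, and limma-voom on the rebuilt reads also called 0 in each. The 95% interval of the log2 fold change lay within 1.5-fold in either direction for 36 of 39 genes in each comparison, 108 of 117 intervals in all, against 77.5%, 78.7% and 74.8% of all genes. These shares were not matched for level, the median being 28.3 RPKM for the 39 genes and 9.65 for all genes tested.

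Taken as a group, the fitted differences were small. The median log2 fold change of the 39 genes was -0.04 in HSD against ND, -0.07 in HFD against ND and 0.02 in HSD against HFD, beside 0.00, 0.02 and -0.01 over all genes tested. The comparisons share libraries, HSD and HFD being set against the same 3 ND libraries. Without scaling between libraries the median of all genes itself shifted by 0.102 on the log2 scale in HFD against ND, by 0.038 in HSD against ND and by -0.064 in HSD against HFD, and the directions of the family medians given below are relative to that shift.

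**Figure D2:**
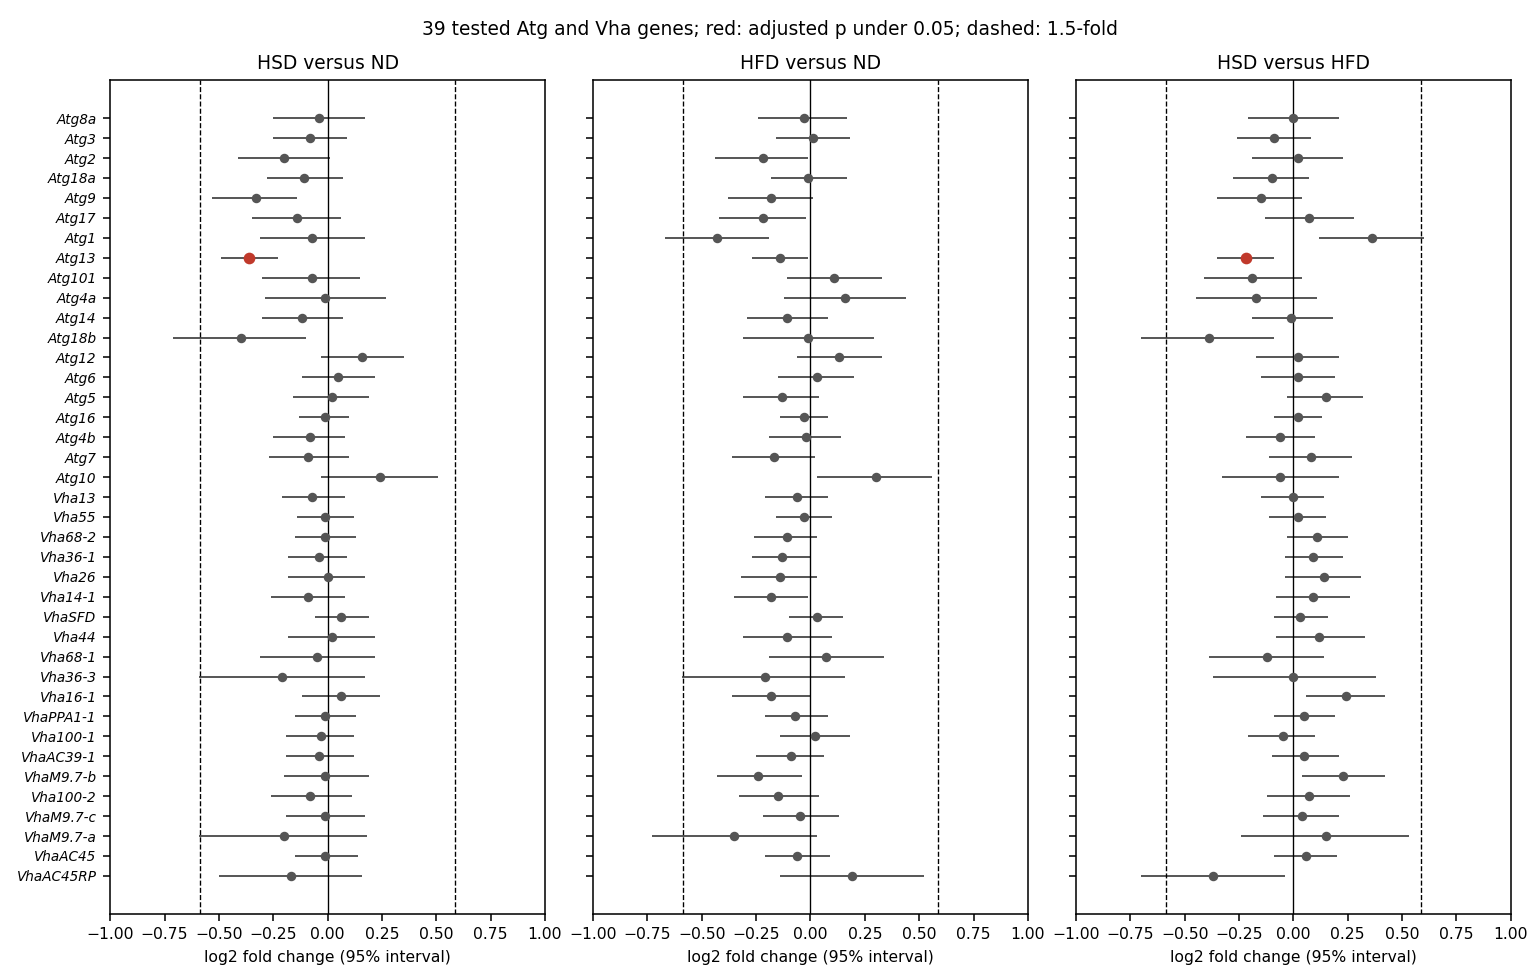
Log2 fold changes (points) with 95% intervals (lines) of the 39 tested genes in the 3 comparisons, Atg genes above and Vha genes below, each sorted by level. Dashed lines mark 1.5-fold, and the 2 red points, both Atg13, are the only values with a limma adjusted p under 0.05.

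The smallest p-value of the 39 genes in each comparison belonged to the induction complex, which consists of the kinase Atg1, its regulatory partner Atg13, the scaffold Atg17 and the Atg13 partner Atg101. Their mean levels lay close together, from 20.8 to 23.9 RPKM. Atg13 (FBgn0261108, 3R 8349815 to 8352817 in BDGP6) was at 24.1, 22.6 and 23.2 RPKM in ND, 18.6, 17.3 and 18.2 in HSD and 21.4, 21.8 and 20.2 in HFD. Every HSD library lay below every HFD library, and every HFD library below every ND library. The means were 23.3 ± 0.73, 18.0 ± 0.698 and 21.1 ± 0.834 RPKM (SD, n = 3 each), from 3887 to 5252 reads per library. In HSD against ND the log2 fold change was -0.36 (SE 0.06, 95% interval -0.49 to -0.23), a level 22.1% lower, with a limma Benjamini-Hochberg adjusted p of 0.012. Atg13 alone among the 39 genes passed on p without the fold requirement, next to 6.68% of all genes (3.91% lower), while in HFD against ND 0 of 39 did so, next to 2.95%. The Atg13 interval excludes a 1.5-fold change. HFD against ND gave -0.14 (limma adjusted p = 0.24).

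HSD lay below HFD by 0.22 on the log2 scale for Atg13 (fold change -0.22, SE 0.06, limma Benjamini-Hochberg adjusted p = 0.049), again the single gene of 39 to pass on p alone, against 9.42% of all genes (4.57% lower). That second value is at the edge of the threshold. It stayed under 0.05 in 1 of 9 fits that each left out 1 library, without HFD library C (0.042), and reached 0.17 without HSD library B. The HSD against ND value stayed under 0.05 in 7 of 9 such limma fits, with adjusted p of 0.055 without ND library C and 0.064 without HSD library B. For groups of 3, the exact two-sided permutation test cannot go below 0.1, the value it gives for any gene whose 2 diets do not overlap.

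The label of this row matters. The deposited table holds 2316 rows that carry the values of a neighbouring gene, Atg13 and Atg1 among them. Beside the name Atg13 as listed stand the values of CG30291, with log2 fold changes of 0.27 (limma adjusted p = 0.039) in HSD against ND, 0.07 in HFD against ND and 0.20 in HSD against HFD, the opposite directions. Reads rebuilt from the values and gene lengths came out whole, within 0.05 reads in all 9 libraries, for 95.7% of the moved rows after realignment and for 18.8% as listed. Of the 53 genes 9 lie in such rows, and 52 of 53 gave whole reads after realignment.

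Atg1 (FBgn0260945, 3L 12784429 to 12805116), the kinase itself, was at 22.0, 26.7 and 24.2 RPKM in ND, 20.0, 24.8 and 24.4 in HSD and 16.3, 18.0 and 19.2 in HFD. ND and HSD overlapped, and all 3 HFD libraries lay below all 6 others. The log2 fold change was -0.43 in HFD against ND (SE 0.11, 95% interval -0.67 to -0.19, limma adjusted p = 0.067) and 0.36 in HSD against HFD (SE 0.11, adjusted p = 0.069), neither past the threshold, and -0.07 in HSD against ND. The limma adjusted p in HFD against ND ran from 0.023 to 0.19 over 19 alternatives, under 0.05 in 2 of them. With the library letter as a block it was 0.023. The interval allows a decrease of more than 1.5-fold.

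The 2 partners thus had their lowest levels in different diets. The ratio of Atg1 to Atg13 was 0.913, 1.18 and 1.04 in ND, 1.08, 1.44 and 1.34 in HSD and 0.764, 0.829 and 0.953 in HFD. HSD lay above HFD in every library, while ND overlapped both. That separation follows from the values of the 2 genes given above and is no further evidence. Atg17 was at 26.2, 25.0 and 26.6 RPKM in ND, 23.8, 24.8 and 21.8 in HSD and 22.9, 24.5 and 19.5 in HFD, both rich diets below every ND library (log2 fold changes -0.14 and -0.22, limma adjusted p = 0.43 and 0.24). Atg101 overlapped between ND and both rich diets, with means of 20.6 ± 1.88 RPKM in ND, 19.5 ± 2.3 in HSD and 22.2 ± 1.19 in HFD (SD, n = 3).

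**Figure D3:**
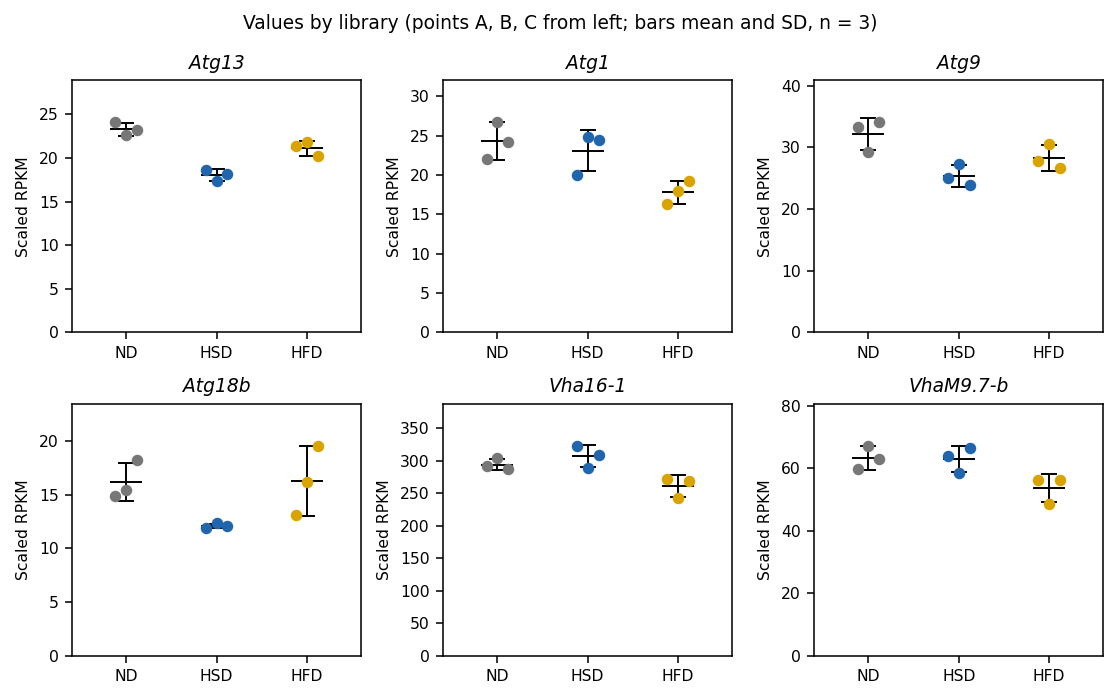
Scaled RPKM by library of Atg13, Atg1, Atg9, Atg18b, Vha16-1 and VhaM9.7-b (axes from 0; points A, B and C from left, bars mean and SD, n = 3). The 3 HSD points lie below the 3 ND points for Atg13, Atg9 and Atg18b, and the 3 HFD points lie below the 3 ND points for Atg13, Atg1, Vha16-1 and VhaM9.7-b.

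The 4 genes of membrane supply all had negative log2 fold changes in HSD against ND, with a median of -0.27, and in HFD against ND, with a median of -0.10. Without scaling between libraries the value of Atg18a turned to 0.10 in HFD against ND, as did that of Atg18b. Atg9 (FBgn0034110, 2R 16294400 to 16297232), the transmembrane protein whose vesicles seed the membrane, was at 33.3, 29.2 and 34.1 RPKM in ND, 25.0, 27.4 and 23.9 in HSD and 27.8, 30.6 and 26.6 in HFD. Every HSD library lay below every ND library, while HFD overlapped both. The log2 fold change in HSD against ND was -0.33 (SE 0.09, 95% interval -0.53 to -0.14, limma adjusted p = 0.054, and 0.039 to 0.18 over the alternatives).

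Atg18b (FBgn0032935, 2L 21212322 to 21220572), a phosphoinositide-binding protein of the WIPI family, was at 14.9, 15.5 and 18.3 RPKM in ND, 11.9, 12.4 and 12.1 in HSD and 13.1, 16.2 and 19.6 in HFD. The HSD libraries lay close together and below all others, while HFD lay on both sides of the ND range. HSD against ND gave -0.40 (SE 0.13, limma adjusted p = 0.11) and HSD against HFD -0.39 (adjusted p = 0.10). Its relative Atg18a was at 31.3, 34.2 and 35.3 RPKM in ND, 30.1, 33.6 and 29.8 in HSD and 31.1, 34.3 and 34.8 in HFD, overlapping in all diets. The ratio of Atg18a to Atg18b was 2.08 ± 0.14 in ND, 2.57 ± 0.131 in HSD and 2.09 ± 0.305 in HFD (SD, n = 3), with HSD libraries at 2.52, 2.72 and 2.47 above the ND libraries at 2.1, 2.2 and 1.93. Atg2, a lipid transfer protein, was at 38.3, 36.8 and 38.6 RPKM in ND, 31.7, 36.2 and 31.1 in HSD and 34.9, 34.6 and 28.3 in HFD. Both rich diets lay below every ND library for Atg2, with log2 fold changes of -0.20 (limma adjusted p = 0.27) and -0.22 (adjusted p = 0.25).

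The conjugation genes had medians close to 0, at -0.01 and -0.02 in HSD and HFD against ND over 9 tested genes. Atg8a, the main ubiquitin-like protein of the autophagosome and the most abundant Atg gene, was at 292, 360 and 348 RPKM in ND, 319, 327 and 323 in HSD and 312, 321 and 341 in HFD. Its diets overlapped throughout. The log2 fold change was -0.04 in HSD against ND (95% interval -0.25 to 0.17) and -0.03 in HFD against ND (-0.24 to 0.17), values that bound a change to well under 1.5-fold and that turned positive under quantile normalization (0.09 and 0.08). The second Atg8 gene, Atg8b, had a mean of 0.0518 RPKM and was not tested. Atg3, the E2-like enzyme that hands over Atg8, was at 45.1, 42.0 and 44.3 RPKM in ND, 45.1, 39.8 and 39.3 in HSD and 46.8, 41.9 and 43.9 in HFD.

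Atg10, the E2-like enzyme for Atg12, was the lowest tested Atg gene and the single Atg gene with HFD above ND in every library, at 1.87, 1.67 and 1.6 RPKM in ND, 1.71, 2.46 and 2.19 in HSD and 2.2, 2.39 and 2.05 in HFD. HFD against ND gave 0.30 (SE 0.12, limma adjusted p = 0.23), from 182 to 284 reads per library. A gene on the other strand, Dgk, covers 46.6% of the exon bases of Atg10, and since the strand setting of the counting was not given, reads of the 2 genes may be mixed. The same holds for the Atg8 protease Atg4a, where CG4629 on the other strand covers 51.4%, while 32 of the 39 tested genes share no exon bases with another gene. Atg4a had mean levels of 16.4, 16.3 and 18.4 RPKM in ND, HSD and HFD and the other protease, Atg4b, 7.01, 6.6 and 6.88.

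Atg5, the target of Atg12, lay lower in every HFD library (8.58, 8.25 and 8.57 RPKM) than in every ND library (9.15, 8.87 and 9.95), with 10.4, 9.5 and 8.53 in HSD. Its log2 fold change was -0.13 (limma adjusted p = 0.42). The E1-like Atg7, the partner Atg16 and Atg12 itself overlapped between ND and both rich diets at 5.78 to 7.5, 8.46 to 8.92 and 13.1 to 16.2 RPKM. Of the lipid kinase complex, Atg6 (Beclin 1) had means of 13.0, 13.4 and 13.2 RPKM in ND, HSD and HFD and Atg14, the targeting subunit, 18.0, 16.5 and 16.6.

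Among the V-ATPase genes, 1 gene supplied nearly all RNA for most subunits. Vha16-1, the proteolipid that forms the rotating ring of Vo, made up at least 99.9% of the RPKM of the 5 subunit c genes. VhaPPA1-1 made up at least 99.8% for subunit c'', Vha36-1 98.4% to 99.1% for subunit D and VhaAC39-1 at least 99.9% for subunit d. Other genes held a larger share in 3 subunits. Vha68-2 held 82.1% to 87.5% of the catalytic subunit A, with Vha68-1 as its main partner, VhaM9.7-b 64.7% to 71.2% of subunit e, and Vha100-1 63.2% to 68.5% of subunit a, the Vo subunit through which protons pass, with Vha100-2 next. The ratio of Vha100-1 to Vha100-2 was 1.86 ± 0.153 in ND, 1.92 ± 0.236 in HSD and 2.09 ± 0.142 in HFD, and that of Vha68-2 to Vha68-1 5.47 ± 0.498, 5.69 ± 1.2 and 4.78 ± 0.188 (SD, n = 3). The first ratio overlapped between ND and both rich diets. The second was 5.01, 5.41 and 6.0 in ND, 7.08, 5.01 and 4.99 in HSD and 4.62, 4.99 and 4.74 in HFD. Every HFD library lay below every ND library, but only just for HFD B (4.99) against ND A (5.01).

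Subunit levels in RPKM did not follow a common value, within the limit on comparing genes given above. Subunit c, present as a ring of several copies in the pump, summed to 287 RPKM over all libraries. Subunits A, B, G and a, encoded by 3, 1, 1 and 5 genes, lay between 110 and 112 RPKM. Subunits e, D, c'', E, d, F and H ranged from 61.0 to 89.3, and subunit C, which joins V1 to Vo, was the lowest at 25.9 RPKM (21.4 to 27.8 over the libraries).

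**Figure D4:**
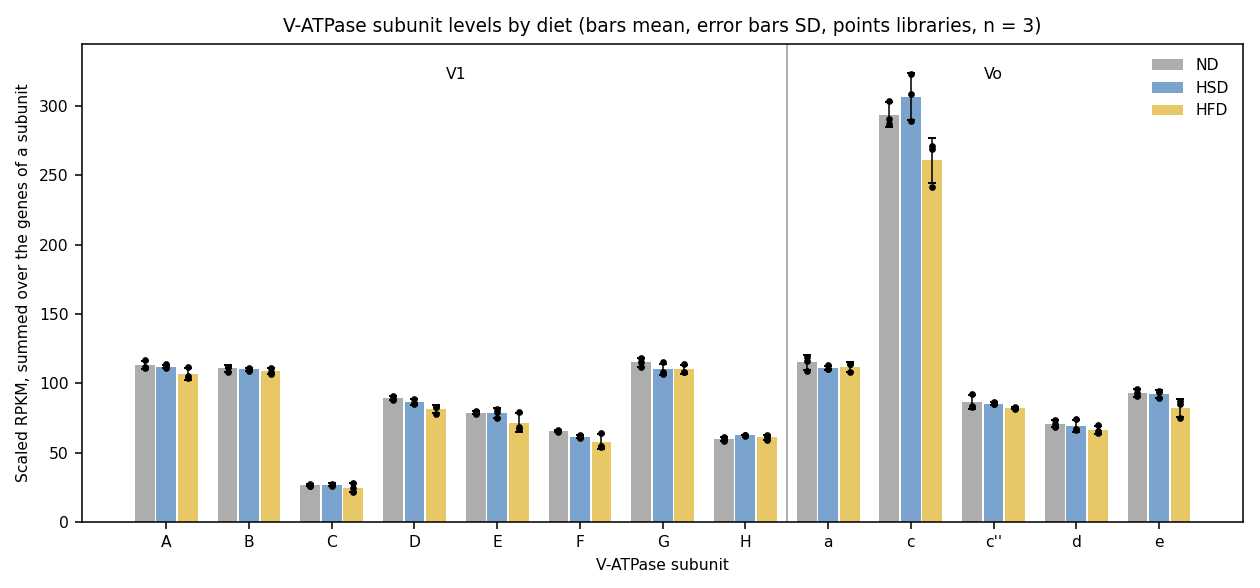
Scaled RPKM summed over the genes of each V-ATPase subunit in ND, HSD and HFD (bars mean, error bars SD, points libraries, n = 3; axis from 0). Subunit c stands at 294, 307 and 261 RPKM in the 3 diets, and subunit C is the lowest at 26.3, 26.7 and 24.6.

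In HFD against ND, 16 of 20 Vha genes had negative log2 fold changes, with medians of -0.11 in V1 and -0.12 in Vo, which became 0.0 and -0.008 without scaling between libraries, with 5 of 10 and 4 of 8 genes below 0. The share of all tested genes below 0 was 46.0%. In 7 of the 20 every HFD library lay below every ND library, and none lay wholly above, while over all tested genes 12.0% lay wholly below and 23.3% did not overlap in either direction. The 7 were Vha16-1, Vha68-2, VhaPPA1-1, Vha36-1, Vha14-1, VhaM9.7-b and VhaM9.7-a. Library HFD B held the lowest value for 10 of the 20 Vha genes. Without it the V1 and Vo medians were -0.073 and -0.084.

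Vha16-1 (FBgn0262736, 2R 6625242 to 6633090) was at 291, 304 and 287 RPKM in ND, 323, 289 and 309 in HSD and 271, 242 and 269 in HFD. HFD lay below both other diets, and ND and HSD overlapped. The log2 fold change was -0.18 in HFD against ND (SE 0.08, 95% interval -0.36 to 0.00, limma adjusted p = 0.28) and 0.24 in HSD against HFD (SE 0.08, adjusted p = 0.10), from 47589 to 87787 reads per library. VhaM9.7-b, the most abundant subunit e gene, was at 59.6, 67.2 and 62.8 RPKM in ND, 63.8, 58.4 and 66.6 in HSD and 56.3, 48.4 and 56.1 in HFD. It showed the same order, with HFD below both other diets. HFD against ND gave -0.24 (SE 0.09, 95% interval -0.43 to -0.04, limma adjusted p = 0.18) and HSD against HFD 0.23 (adjusted p = 0.13).

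Vha68-2 was at 97.0, 93.9 and 96.0 RPKM in ND, 99.4, 92.7 and 93.3 in HSD and 91.9, 87.7 and 85.4 in HFD, again with HFD lowest (limma adjusted p = 0.37). Vha36-1, the central shaft subunit D, had means of 88.0 ± 1.47, 85.5 ± 2.04 and 80.1 ± 3.05 RPKM in ND, HSD and HFD (SD, n = 3), and Vha14-1, subunit F, 65.5 ± 0.496, 61.5 ± 1.17 and 57.9 ± 5.7. For Vha14-1 the HSD libraries also lay wholly below ND. Vha26, subunit E, was at 68.7 and 66.9 RPKM in HFD A and B and at 79.3 in HFD C, within the ND range of 77.5 to 80.2.

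In HSD against ND, 17 of 20 Vha genes lay below 0, against 49.5% of all genes, but the medians were -0.03 in V1 and -0.02 in Vo and turned to 0.017 and 0.018 without scaling. The range ran from -0.21 to 0.06. Vha55, the nucleotide-binding subunit B, was at 112, 112 and 108 RPKM in ND, 109, 110 and 111 in HSD and 108, 107 and 111 in HFD. Its log2 fold changes were -0.01 in HSD (95% interval -0.14 to 0.12) and -0.03 in HFD (-0.16 to 0.10), and 0.04 and 0.08 without scaling. The 5 tested genes whose log2 values over the 9 libraries were most like those of Vha55 were PPP4R2r, CG15879, dsb, Qtzl and CG8089 (Pearson's r of 0.922, 0.91, 0.889, 0.886 and 0.873, a description across libraries that share their depth and scaling). They are the top of all tested genes, set against a gene that spanned only 107 to 112 RPKM. Whether they share regulation with Vha55 was not tested. Vha13, the stalk subunit G, was at 118, 115 and 112 RPKM in ND, 108, 115 and 107 in HSD and 108, 108 and 114 in HFD.

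VhaSFD, the regulatory subunit H, was the single Vha gene with HSD wholly above ND, at 62.3, 62.4 and 62.4 against 60.9, 60.0 and 58.5 RPKM (log2 fold change 0.06, limma adjusted p = 0.62). VhaAC45, which encodes the Ac45 accessory protein, was at 95.2, 96.6 and 92.6 RPKM in ND, 88.5, 96.3 and 98.8 in HSD and 89.2, 89.4 and 93.8 in HFD. Its low relative VhaAC45RP had means of 1.37 ± 0.232, 1.15 ± 0.132 and 1.65 ± 0.35 RPKM (SD, n = 3), with every HFD library above every HSD library (HSD against HFD -0.37, limma adjusted p = 0.16).

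Counted over both families, 7 of 39 genes did not overlap between HSD and ND (6 lower in HSD, 1 higher) where 29.2% of all genes did not. Between HFD and ND 13 of 39 did not overlap (12 lower, 1 higher) against 23.3%, and between HSD and HFD 9 of 39 (3 lower in HSD, 6 higher) against 29.9%. In HSD against HFD 16 of 20 Vha genes were above 0, with medians of 0.06 in V1 and Vo, which became -0.007 in both without scaling. The spread between libraries of a diet was small, with a median residual SD on the log2 scale of 0.102 for Atg, 0.064 for V1 and 0.083 for Vo genes, against 0.126 for all genes. Levels were not matched here, with medians of 17.0, 69.0 and 64.3 RPKM for these groups and 9.65 for all genes tested. Malpighian tubules, whose cells are known to be rich in V-ATPase, are a possible neighbour of the dissected heart. Their 8 markers summed to 16.1 to 17.8 RPKM in ND, 14.0 to 15.5 in HSD and 13.7 to 14.8 in HFD, and Uro, CapaR, ZnT35C and Lkr were under 0.5 RPKM on average. Most of that sum came from ClC-a, with a mean of 10.4 RPKM. ClC-a lay below ND in every library of both rich diets. Its log2 fold changes were -0.32 in HSD and -0.28 in HFD (limma adjusted p = 0.05 and 0.1). Of the 4 tubule markers tested, 1 was below 0 and 3 above in HSD against ND (median 0.04). In HFD against ND 3 were below and 1 above (median -0.27). The part of the tubules in the Vha values was not tested.

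The 13 Vha genes that were not tested are all second copies of a subunit that another gene supplied. Vha68-3 was the highest of them at 0.123 RPKM, with 16 to 30 reads in every library. Vha100-5, Vha100-4, VhaPPA1-2, Vha36-2, Vha16-5, VhaAC39-2, Vha16-4 and Vha100-3 had 48, 46, 25, 19, 17, 15, 8 and 3 reads in all 9 libraries together. Vha16-2, Vha16-3, Vha14-2 and VhaM9.7-d had 0 reads in every library. For them 3 reads, the limit that a count of 0 allows if reads are independent, would be 0.0199 to 0.101 RPKM. The study sequenced fragments from both ends, and 62.4% to 66.5% of low counts were even in the libraries. Reads may therefore come in pairs, and the limit may be higher. The 7 testis markers were likewise under 0.5 RPKM and summed to 0.292 to 0.847 RPKM per library.

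The remaining machinery of autophagy and the lysosome was followed in a list of genes from textbook roles. Of 43 autophagy and lysosome genes without the prefix, all tested, 0 were called in any comparison. In HSD against ND, HFD against ND and HSD against HFD, 3.3%, 1.91% and 4.35% of all tested genes were called. On limma adjusted p alone, 1 was higher and 2 lower in HSD against ND, 0 differed in HFD against ND, and 1 was higher and 3 lower in HSD against HFD, with medians of -0.05, -0.04 and -0.02. These counts lie near the shares of all tested genes, 6.68%, 2.95% and 9.42%. At an unadjusted p under 0.05, 8, 8 and 11 of the 43 passed, again near the 20.7%, 18.4% and 25.7% of all genes.

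The gene spin, which encodes a lysosomal membrane transporter, was at 79.2, 73.5 and 76.1 RPKM in ND, 95.2, 115 and 107 in HSD and 73.6, 83.9 and 73.8 in HFD. HSD lay above both other diets, by 0.46 against ND (SE 0.09, limma adjusted p = 0.019) and 0.45 against HFD (SE 0.09, adjusted p = 0.016) on the log2 scale. The cathepsin CtsB, a lysosomal protease, was at 600, 599 and 597 RPKM in ND, 443, 493 and 472 in HSD and 545, 583 and 579 in HFD. HSD lay lowest and HFD between, with -0.35 in HSD against ND (SE 0.08, adjusted p = 0.032). Syx17, the SNARE that fuses autophagosome and lysosome, was at 17.4, 16.8 and 16.7 RPKM in ND, 13.9, 14.5 and 13.4 in HSD and 17.9, 19.0 and 17.0 in HFD. Its log2 fold changes were -0.27 against ND (SE 0.06, adjusted p = 0.033) and -0.35 against HFD (SE 0.06, adjusted p = 0.0092), with HSD below all other libraries.

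In HSD against HFD alone, alc, a regulatory subunit of AMP-activated kinase, and foxo, a transcription factor restrained by insulin signalling, also passed on limma adjusted p. alc was at 102, 101 and 93.6 RPKM in ND, 79.7, 88.0 and 80.8 in HSD and 113, 113 and 108 in HFD (HSD against HFD -0.43, SE 0.07, adjusted p = 0.007). foxo was at 29.5, 29.4 and 29.9 in ND, 25.1, 26.9 and 24.8 in HSD and 32.8, 33.7 and 32.1 in HFD (-0.35, SE 0.06, adjusted p = 0.0062). For both genes ND lay between HSD and HFD with no overlap. The row of foxo is a realigned one whose reads did not come out whole, while its neighbours' reads did. The values of Syx17, alc and foxo in HSD against HFD stayed under 0.05 in all 9 limma fits without 1 library. Those of spin did so in 6 of 9, and in HSD against ND spin, CtsB and Syx17 in 5, 3 and 2 of 9.

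**Figure D5:**
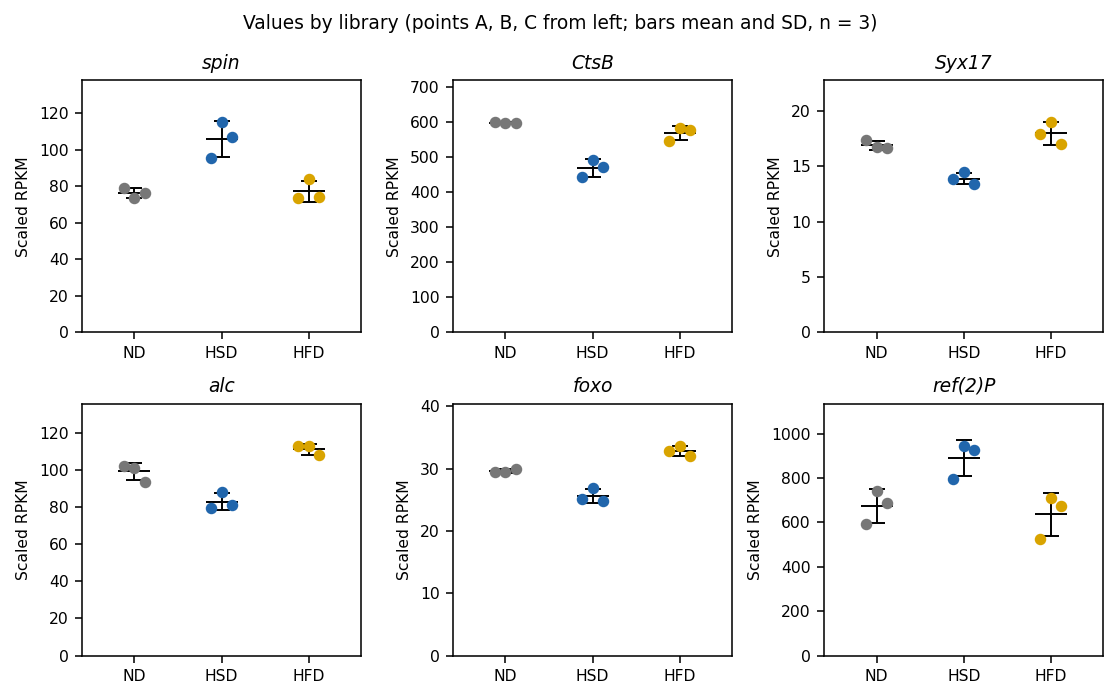
Scaled RPKM by library of spin, CtsB, Syx17, alc, foxo and ref(2)P (axes from 0; points A, B and C from left, bars mean and SD, n = 3). HSD lies above ND and HFD for spin and ref(2)P and below both for the other 4 genes.

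The cargo receptor ref(2)P, the fly p62, is itself degraded by autophagy. Its RNA was at 593, 742 and 689 RPKM in ND, 796, 946 and 928 in HSD and 526, 708 and 676 in HFD. HSD lay above both other diets (0.40 against ND, limma adjusted p = 0.14, and 0.49 against HFD, adjusted p = 0.063). Mitf, the transcription factor known to drive V-ATPase and autophagy genes in flies, overlapped in all diets at 14.0, 16.8 and 15.9 RPKM in ND, 13.4, 15.6 and 16.2 in HSD and 11.9, 12.4 and 16.6 in HFD. ATP6AP2, a further accessory protein of the V-ATPase, was at 112, 112 and 107 RPKM in ND, 104, 108 and 110 in HSD and 99.7, 98.5 and 102 in HFD, lowest in HFD (log2 fold change -0.14 against ND, adjusted p = 0.27). ref(2)P, Mitf and ATP6AP2 were picked from the list of 43 after their values were seen.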

How the data were processed

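Total RNA from dissected hearts was sequenced with a stranded, rRNA-depleted kit. The authors trimmed reads, aligned them to dm3 with Subread 1.6.1 and counted genes with featureCounts 1.6.1, with identifiers updated to dm6; the strand setting, the step from counts to RPKM and its gene lengths are not given in the sources used here. The values used are the RPKM the authors deposited, read with decimal commas (28.4% of values) turned into points. In 2316 of 16700 rows the values belong to a neighbouring listed gene, and these labels were realigned. Whole reads were rebuilt as RPKM times exon length (Ensembl BDGP6) times total reads. The total of each library was itself estimated, so that the values came out whole. An identifier listed in several rows was read from the row whose reads came out whole.

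RPKM were scaled by the median of ratios (factors 0.9397 to 1.086), and log2(RPKM + 0.5) was fitted for the 8365 rows averaging 0.5 RPKM or more, using limma 3.58.1 (trended prior, 9 libraries, no covariate), with Benjamini-Hochberg adjustment over all of them. Fold changes are on the log2(RPKM + 0.5) scale, which understates changes of low genes. The design assumed RPKM and no count test; the values were recorded as another unit because of its commas. A call was an adjusted p under 0.05 and at least 1.5-fold. The fit was tested on simulated data with counts far above the real ones. Counting error of low genes was therefore not covered.

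The Atg and Vha genes, the 43 pathway genes, the markers and the tests were chosen with earlier results of these data known. Named in full were genes passing on adjusted p, the 3 smallest p in each comparison, the 5 highest of each family and genes sharing a subunit or step. Library letters come from the labels. By the study's methods each collection date held flies of all 3 diets, so date is a possible block, but no source ties letters to dates. The fit therefore has no block, and the letter block is an alternative. Correlations of libraries within a diet were 0.98 to 0.994, with 0 identical values. Per-sample columns left out numbered 0. Intervals of reads cover counting error only. Alternatives were scaling, filter, pseudocount, prior, labels, libraries, letter block, call rule and limma-voom. Sequences and promoter motifs were not analysed here.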

Additional observations from a re-analysis of the deposited data

Results flagged for a closer look

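1 value stood out by the test of the difference between the 2 rich diets. Atg13, the regulatory partner of the Atg1 kinase, differed between HSD and HFD with a log2 fold change of -0.22 (limma Benjamini-Hochberg adjusted p = 0.049), lower in 3 of 3 HSD libraries than in every HFD library. In the alternatives other than the listed labels, the adjusted p ran from 0.015 to 0.17 and was under 0.05 in 7 of 19 and above it in the others. Its size, a change of -14.2%, was under the 1.5-fold required for a call.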

How the results depend on the processing

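Under every alternative that kept both the adjusted p and the fold requirement, and under the unadjusted p with the fold requirement, 0 of the Atg and Vha genes were called in each comparison. With no fold requirement 1 was called in HSD against ND and 1 in HSD against HFD, Atg13 both times, and 3 and 4 of the 43 pathway genes. With the labels as listed 1 pathway gene was called in each of these 2 comparisons (foxo, with -1.17 and -1.58, values of another gene), Atg13 was at 0.27, 0.07 and 0.2 in HSD against ND, HFD against ND and HSD against HFD, and Atg1 at 0.12 in HSD and 0.05 in HFD against ND.

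With RPKM as deposited, family medians in HFD against ND were 0.077 (Atg), 0.0 (V1) and -0.008 (Vo), and in HSD against HFD -0.007 in V1 and Vo. Small values that changed sign in this setting were Vha55 (0.04 in HSD, 0.08 in HFD against ND, -0.05 in HSD against HFD), VhaAC45 (0.04, 0.05 and -0.01), Vha68-2 (0.03) and VhaM9.7-b (0.04) in HSD against ND, Atg18a and Atg18b (both 0.1), Atg8a (0.08), Vha13 (0.05) and CtsB (0.04) in HFD against ND, and Atg2 (-0.05) in HSD against HFD. With quantile normalization they were Atg8a (0.09), Vha55 (0.04), Vha68-2 (0.03), VhaAC45 (0.05) and VhaM9.7-b (0.06) in HSD against ND, Atg18a (0.04), Atg18b (0.01) and Atg8a (0.08) in HFD against ND, and Atg10 (0.04) in HSD against HFD. With a minimum of 2 RPKM, the accessory median was -0.061 in HFD against ND and 0.055 in HSD against HFD, from the 1 gene left.

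Leaving out 1 library at a time reversed the sign of Atg1 (-0.14 to 0.02), Atg8a (-0.13 to 0.02), Vha68-2 (-0.04 to 0.01), VhaAC45 (-0.04 to 0.04) and VhaM9.7-b (-0.05 to 0.05) in HSD against ND, of Atg3 (-0.03 to 0.05), Atg8a (-0.13 to 0.02), Atg18a (-0.06 to 0.04), Atg18b (-0.15 to 0.13) and spin (-0.05 to 0.04) in HFD against ND, and of Atg2 (-0.07 to 0.07) and Atg10 (-0.15 to 0.06) in HSD against HFD. The cause of these changes was not tested. None of the values in this paragraph reached an adjusted p under 0.05 in limma under any setting.

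Whether the library letters mark the shared collection dates is not known. Deviations of libraries with the same letter correlated at -0.25 to 0.267, and not every library correlated best with its own letter, which neither shows nor excludes a pairing. With the letter as a replicate block 0 Atg and Vha genes were called in each comparison, and Atg1 in HFD against ND reached a limma adjusted p of 0.023. Low genes such as Atg10 (182 to 284 reads) and the untested Vha copies are limited by depth.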
